A study of Arabidopsis thaliana with 6 samples.

Results

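The class III homeodomain leucine zipper (HD-ZIP III) genes of Arabidopsis thaliana were followed on nuclear and cellular arrays of embryos at the 16-cell stage. The 5 genes PHB (PHABULOSA, AT2G34710_at), PHV (PHAVOLUTA, AT1G30490_at), REV (REVOLUTA, AT5G60690_at), ATHB8 (AT4G32880_at) and ATHB15 (CORONA, AT1G52150_at) were taken by locus from a table of 27826 loci, and all 5 were present. None shared its values on all arrays with another locus. The nuclear samples are labelled as embryo nuclei, which were pulled down with INTACT. In this method a tag on the nuclear envelope is biotinylated in chosen cells, here with a marker for the whole embryo. The cellular samples held total RNA of whole embryos dissected by hand with a micromanipulator. Both groups were collected 72 h after hand pollination and had 3 arrays each, labelled as biological replicates. The strain, the promoters of the tagging system and the number of embryos pooled per array are not given in the sources used here. How RNA was isolated, which compartment it came from and which tissues were in the samples cannot be told apart in this design.

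HD-ZIP III proteins are transcription factors with a homeodomain, a leucine zipper and a START domain. They set apical fate in the early embryo, where loss of several members weakens the shoot pole, and later the upper side of leaves and the pattern of vascular tissue. Their messenger RNAs are cut under the guidance of the related microRNAs miR165 and miR166, and small LITTLE ZIPPER proteins, whose genes they switch on, bind them into inactive dimers. The question asked of each gene was how its level in nuclear RNA compared with that in cellular RNA, given as nuclear minus cellular on the log2 scale of the deposited intensities.

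Markers of embryo and of maternal tissue were read on the same arrays. The 5 embryo markers (WOX2, WOX8, WOX9, LEC1 and ESR1) had medians of 2.37, 2.82 and 2.16 on nuclear replicates 1 to 3, against 7.24, 5.99 and 6.07 on cellular replicates 1 to 3. On the nuclear arrays these embryo markers thus lay near the array medians, which ran from 2.56 to 2.68 on the nuclear arrays and from 2.46 to 2.52 on the cellular arrays. Summed linear intensity of the embryo markers ran from 22 to 31 on the nuclear arrays. It was 899, 593 and 283 on cellular replicates 1 to 3. Of the cellular arrays, replicate 3 was the lowest for WOX2, WOX8 and ESR1, and replicate 2 for WOX9 and LEC1. All 5 passed the test described below as lower, with measured ratios of 7.91-fold for WOX8 to 30.0-fold for WOX2. The table has no detection calls, so a ratio against values near the array medians, here and for single genes below, is that of the deposited values and not of levels known to be above background. The 17 seed coat markers, genes of the maternal tissue around the embryo, had medians of 7.23, 5.84 and 6.09 on the nuclear arrays, against 3.12, 4.84 and 7.04 on the cellular arrays, and 17 of 17 averaged higher in nuclear RNA, as did 16601 of all 27241 genes. Of the 17, 0 passed and 4 had an unadjusted p under 0.05, where 10.1% of all genes were higher at that p. Their summed linear intensity ran from 3082 to 7013 on the nuclear arrays and from 453 to 3802 on the cellular arrays. The lowest value of the 17 was 1.94 on the log2 scale, below all array medians. Presence of each of the 17 on every array is thus not shown. Medians of the 7 endosperm markers ran from 1.86 to 2.37 on the nuclear arrays and from 1.74 to 1.80 on the cellular arrays, and 0 of 7 passed. The part of these tissues in the changes of the HD-ZIP III genes was not tested. Cellular replicate 3 stood nearest the nuclear arrays, with a mean Pearson correlation of 0.81 with them across genes, against 0.70 for cellular replicate 1 and 0.74 for cellular replicate 2. Changes of PHB, REV and ATHB15 and calls gained without cellular replicate 3 are given with and without it.

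PHB was the one HD-ZIP III gene that passed the test, and it was about 5-fold lower in nuclear RNA. REV was lower on every nuclear array than on any cellular array but did not pass. ATHB15, PHV and ATHB8 had nuclear and cellular arrays that overlapped. The count was thus 1 of 5 lower and 0 of 5 higher by a two-sided limma fit over 27241 genes with Benjamini-Hochberg adjusted p under 0.05, where 4.71% of all genes tested were lower and 1.15% higher. These shares are 1284 lower and 313 higher genes, against 846 lower and 489 higher after cyclic loess and 928 lower and 426 higher after quantile normalization. At an unadjusted p under 0.05, 2 of 5 were lower and 0 of 5 higher, where 13.3% of all genes were lower and 10.1% higher. In these bulk samples fewer cells of a type and less RNA per cell cannot be told apart.

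PHB, a regulator of apical and adaxial (upper side) fate, had 4.13, 3.83 and 4.76 on nuclear replicates 1 to 3, against 6.87, 7.01 and 5.78 on cellular replicates 1 to 3. The highest nuclear array lay 1.02 below the lowest cellular array, which was replicate 3. PHB averaged 4.24 ± 0.47 in nuclear RNA and 6.55 ± 0.68 in cellular RNA (SD, n = 3 each), a fall of 4.98-fold (log2 change -2.32, SE 0.41, 95% interval -3.31 to -1.32, limma adjusted p = 0.0298). By the size of its change PHB stood at place 849 from the lowest among 27241 genes. Without cellular replicate 3 the change of PHB was -2.71 (limma adjusted p = 0.0145). The call needed most of the arrays: it was lost without nuclear replicate 1 (limma adjusted p = 0.0804), nuclear replicate 2 (0.0897), cellular replicate 1 (0.106) or cellular replicate 2 (0.116).

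REV, which acts in apical fate and in the stem and its fibres, had 4.35, 4.18 and 4.35 on the nuclear arrays, against 6.45, 6.23 and 4.95 on the cellular arrays. The nuclear arrays were close together, and cellular replicate 3 lay far below the other cellular arrays but 0.60 above the highest nuclear one. REV averaged 4.29 ± 0.10 in nuclear RNA and 5.88 ± 0.81 in cellular RNA (SD, n = 3 each), a log2 change of -1.59 (SE 0.41, 95% interval -2.58 to -0.60, limma adjusted p = 0.0794). Without cellular replicate 3 the change of REV was -2.05 and passed (limma adjusted p = 0.0102), which brought the count to 2 of 5 lower. PHB and REV were thus 2 of 5 genes with every nuclear array below every cellular array, as 14.4% of all genes were, and 0 of 5 genes lay the opposite way, as 18.6% of all genes did.

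ATHB15, which acts in vascular and meristem development, had 3.59, 3.21 and 3.40 on the nuclear arrays, against 4.99, 4.26 and 3.06 on the cellular arrays. Cellular replicates 1 and 2 lay above every nuclear array, while cellular replicate 3 lay below all of them. Its log2 change was -0.70 (SE 0.48, 95% interval -1.87 to 0.47, limma adjusted p = 0.407), and -1.23 without cellular replicate 3 (limma adjusted p = 0.0816). For PHB, REV and ATHB15 alike, cellular replicate 3 was the lowest cellular array. It was also the cellular array with the highest seed coat median and the lowest summed embryo marker intensity (283, linear). The other members, PHV and ATHB8, were not lowest on that array. Their lowest cellular values, 3.91 and 2.50, were on cellular replicate 1, which had the lowest seed coat median of the cellular arrays (3.12).

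**Figure D1:**
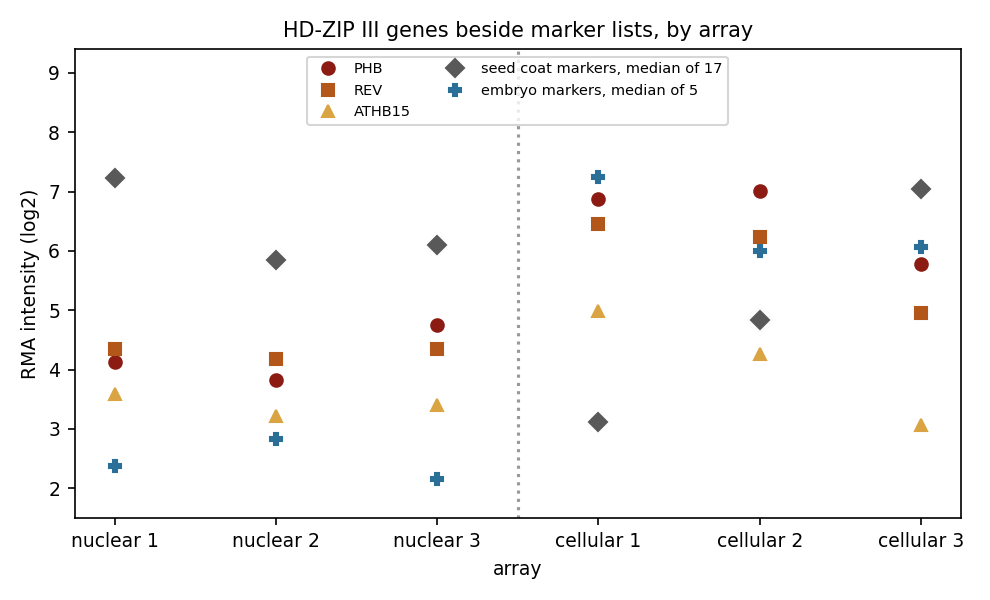
Intensity (log2, vertical axis) on each of the 6 arrays (horizontal axis, nuclear then cellular) for PHB, REV and ATHB15 and for the medians of 17 seed coat and 5 embryo markers. On cellular replicate 3 the seed coat median is 7.04 and PHB, REV and ATHB15 are at 5.78, 4.95 and 3.06, each the lowest of its cellular values. PHV and ATHB8, not shown, have their lowest cellular values on cellular replicate 1 (3.91 and 2.50). Of the cellular arrays, the embryo median is lowest on replicate 2 (5.99). The summed linear embryo marker intensity, not shown, is lowest on replicate 3 (283).

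PHV, the member of the family closest to PHB and overlapping with it in function, had 4.62, 3.74 and 3.41 on the nuclear arrays, against 3.91, 4.70 and 4.20 on the cellular arrays. The groups overlapped, nuclear replicate 1 lying above cellular replicates 1 and 3. The log2 change of PHV was -0.35 (SE 0.38, 95% interval -1.26 to 0.57, limma adjusted p = 0.592), so a fall as large as that estimated for PHB lay outside its interval.

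ATHB8, a gene of the procambium, the tissue that gives rise to the vessels, had 2.81, 2.91 and 2.41 on the nuclear arrays, against 2.50, 3.15 and 2.85 on the cellular arrays. Values of both groups lay close to the array medians, so whether ATHB8 was above background on these arrays is not known. The log2 change of ATHB8 was -0.12 (SE 0.25, 95% interval -0.73 to 0.48, limma adjusted p = 0.776).

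**Figure D2:**
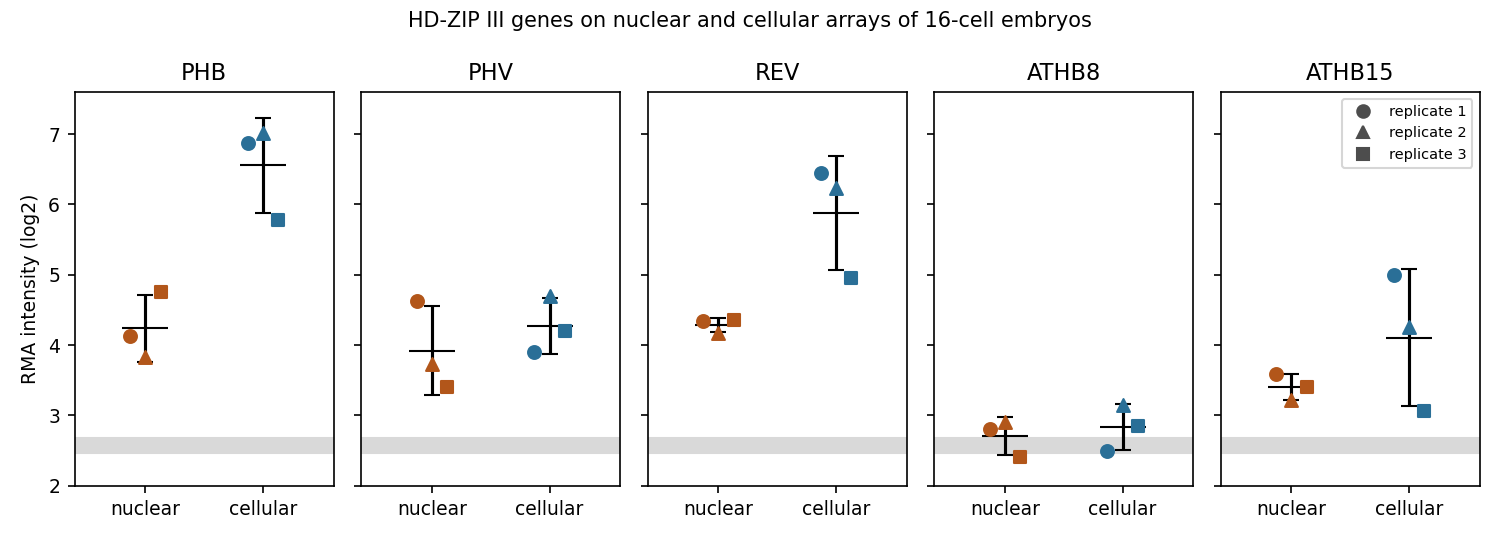
Intensity (log2, vertical axis) of the 5 HD-ZIP III genes on nuclear (left) and cellular (right) arrays, with a symbol for each replicate. Bars give the mean ± SD of 3 arrays, and the grey band spans the 6 array medians; PHB and REV have no nuclear array as high as any cellular one, while ATHB8 lies at the band in both groups.

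All 5 changes lay below 0 as deposited, though that of PHV did not after cyclic loess. Their median was -0.70, against 0.13 for all genes, of which 10640 of 27241 lay below 0. Less this shift of all genes, the 5 changes ran from -2.45 for PHB to -0.26 for ATHB8. After cyclic loess between arrays, which took the median of all genes to 0.02, PHB was at -1.85 (limma adjusted p = 0.0470), REV at -1.13, ATHB15 at -0.40 and ATHB8 at -0.19, and PHV turned to 0.02. The median of the 5 was -1.23 without cellular replicate 3.

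Whether the 5 genes changed unequally was asked from the difference between 2 members on the same array, over all 10 pairs. In 6 pairs, namely PHB against each of the other members and REV against ATHB8 and ATHB15, the nuclear arrays all lay below the cellular arrays. The change of the difference between nuclear and cellular arrays was -1.97 for PHB minus PHV, -2.19 for PHB minus ATHB8, -1.61 for PHB minus ATHB15 and -0.73 for PHB minus REV. Without cellular replicate 3 these changes were -2.32, -2.59, -1.48 and -0.65. With all arrays, the 6 pairs reached the smallest two-sided p that an exact permutation of 3 against 3 arrays can give, 0.1, which became 0.167 after Benjamini-Hochberg adjustment over 10 pairs. No pair could therefore pass the threshold, and unequal change within the family was not shown by this test. Pairs that share a gene are not independent of each other. ATHB8 lay close to the array medians in both groups, so pairs with ATHB8 mostly restate the change of the other member. The share of non-overlapping pairs among other genes was not computed.

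Across the 6 arrays, PHB and REV had the highest correlation in the family (Pearson r = 0.96 over 6 arrays). REV and ATHB15 (0.87), PHV and ATHB8 (0.73) and PHB and ATHB15 (0.72) followed. PHB and PHV had r = 0.31. These values describe 6 arrays in 2 groups and carry the group difference and the place of cellular replicate 3 with them, and were not computed without it, as 5 arrays are too few. Likeness to any gene was also measured as the distance between profiles after centring each gene on its own mean. By this distance the closest members were PHV and ATHB8 (0.81), ahead of PHB and REV (1.10). The closest profiles to PHB were those of AT3G23620 (distance 0.34, r = 0.996) and AT2G28150 (0.38, r = 0.99), and REV was in place 374. Closest to REV were EMB2765 (distance 0.24, r = 0.996) and AT3G09720, an RNA helicase named RH57 (0.25, r = 0.99). Closest to PHV were AT1G34630 (0.26, r = 0.97) and RecQl3, a RecQ DNA helicase (0.30, r = 0.96). Closest to ATHB15 were AT3G07200 (0.21, r = 0.99) and COAB, an enzyme of coenzyme A synthesis (0.28, r = 0.99). Closest to ATHB8 were AT1G32172, annotated as a non-coding RNA (0.15, r = 0.98), and SEC15A, a subunit of the exocyst (0.15, r = 0.98). No member was among the 2 closest genes of another. The closest genes were picked from 27241 over only 6 arrays, so a high r comes with the choice and carries no test.

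The microRNA pathway that acts on the HD-ZIP III transcripts had 3 of 7 genes lower and 0 higher in nuclear RNA, where 4.71% of all genes were lower and 1.15% higher. The median log2 change of the 7 was -1.30, against 0.13 for all genes. AGO10, an Argonaute that binds miR165 and miR166 and keeps them from AGO1, had 2.66, 2.50 and 2.36 on the nuclear arrays, against 5.75, 5.42 and 3.82 on the cellular arrays. All nuclear arrays lay below the cellular ones, and cellular replicate 3 was again the lowest of its group. The deposited values of AGO10 fell 5.61-fold (log2 change -2.49, SE 0.51, limma adjusted p = 0.0434), against nuclear values near the array medians, and the change was -3.08 without cellular replicate 3. SE, a zinc finger protein needed to cut microRNA precursors precisely, fell 4.36-fold (limma adjusted p = 0.0313), and HYL1, the double-stranded RNA-binding partner of DCL1, fell 2.47-fold (limma adjusted p = 0.0225). AGO1, the Argonaute through which miR165 and miR166 cut their targets, had 6.12, 4.66 and 6.41 on the nuclear arrays, against 7.75, 7.29 and 6.53 on the cellular arrays, and did not pass (log2 change -1.46, limma adjusted p = 0.178). Nor did DCL1, which cuts the precursors (0.03), HEN1, which methylates small RNAs (-0.30), or HST, an exportin (-0.10). After cyclic loess 0 of 7 passed, with a limma adjusted p of 0.0585 for SE, 0.0643 for AGO10 and 0.0695 for HYL1 and higher values for the other genes. SE and AGO10 lost their calls when any 1 array other than cellular replicate 3 was left out, and HYL1 lost its call without nuclear replicate 2, nuclear replicate 3, cellular replicate 1 or cellular replicate 2, and also with a trended robust variance (0.103).

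The 9 loci of miR165 and miR166 precursors lay low on all arrays, from 1.08 to 3.08 on the log2 scale. None of the 9 passed and none had an unadjusted p under 0.05. As deposited, 8 of 9 changes lay above 0 (median 0.31), as did those of 16601 of all 27241 genes. Of the 8, those of MIR165A, MIR166D and MIR166E lay below 0 after cyclic loess or quantile normalization. The largest was that of MIR166F, which had 3.08, 2.76 and 1.80 on the nuclear arrays, against 1.91, 2.17 and 1.79 on the cellular arrays (log2 change 0.59, limma adjusted p = 0.356). The groups overlapped, as nuclear replicate 3 lay below cellular replicates 1 and 2. Of the others, MIR166G (0.44), MIR166B (0.38) and MIR166A (0.31) had all nuclear arrays above the cellular ones, as 18.6% of all genes did. Their gaps between the groups were small, at 0.09, 0.02 and 0.15. MIR165B was at 0.37, and MIR165A, MIR166D, MIR166E and MIR166C ran from -0.15 to 0.10. The mature microRNAs are not what such loci on the array measure.

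Proteins that bind HD-ZIP III factors had 2 of 6 genes lower and 0 higher, where 4.71% of all genes were lower and 1.15% higher. Their median was -1.28, against 0.13 for all genes. ESR1 (DORNROESCHEN), an AP2-type factor that binds HD-ZIP III proteins and is also one of the embryo markers above, had 2.37, 2.91 and 2.16 on the nuclear arrays, against 7.58, 7.33 and 5.50 on the cellular arrays. The nuclear values lay around the array medians. The measured ratio of ESR1 was 20.0-fold lower (limma adjusted p = 0.0138), while ESR2 (DRNL), its relative, had a change of 0.45 (limma adjusted p = 0.282). Of the LITTLE ZIPPER genes, ZPR4 had 2.59, 3.54 and 3.27 on the nuclear arrays, against 5.86, 4.97 and 5.98 on the cellular arrays. It fell 5.53-fold (log2 change -2.47, SE 0.37, limma adjusted p = 0.0194). ZPR3 had 4.02, 2.98 and 1.63 on the nuclear arrays, against 5.94, 4.47 and 3.88 on the cellular arrays. The ZPR3 groups overlapped at nuclear replicate 1 and cellular replicate 3, and the change of -1.89 did not pass (limma adjusted p = 0.201). ZPR1 lay between 1.67 and 1.91 on all arrays. ZPR2 was at 5.51 on cellular replicate 3 and between 2.22 and 3.13 on the other arrays, and its change was -0.67 with all arrays and 0.37 without that one. The call of ZPR4 was lost without cellular replicate 1 and that of ESR1 without cellular replicate 2, when 1 of 6 passed.

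**Figure D3:**
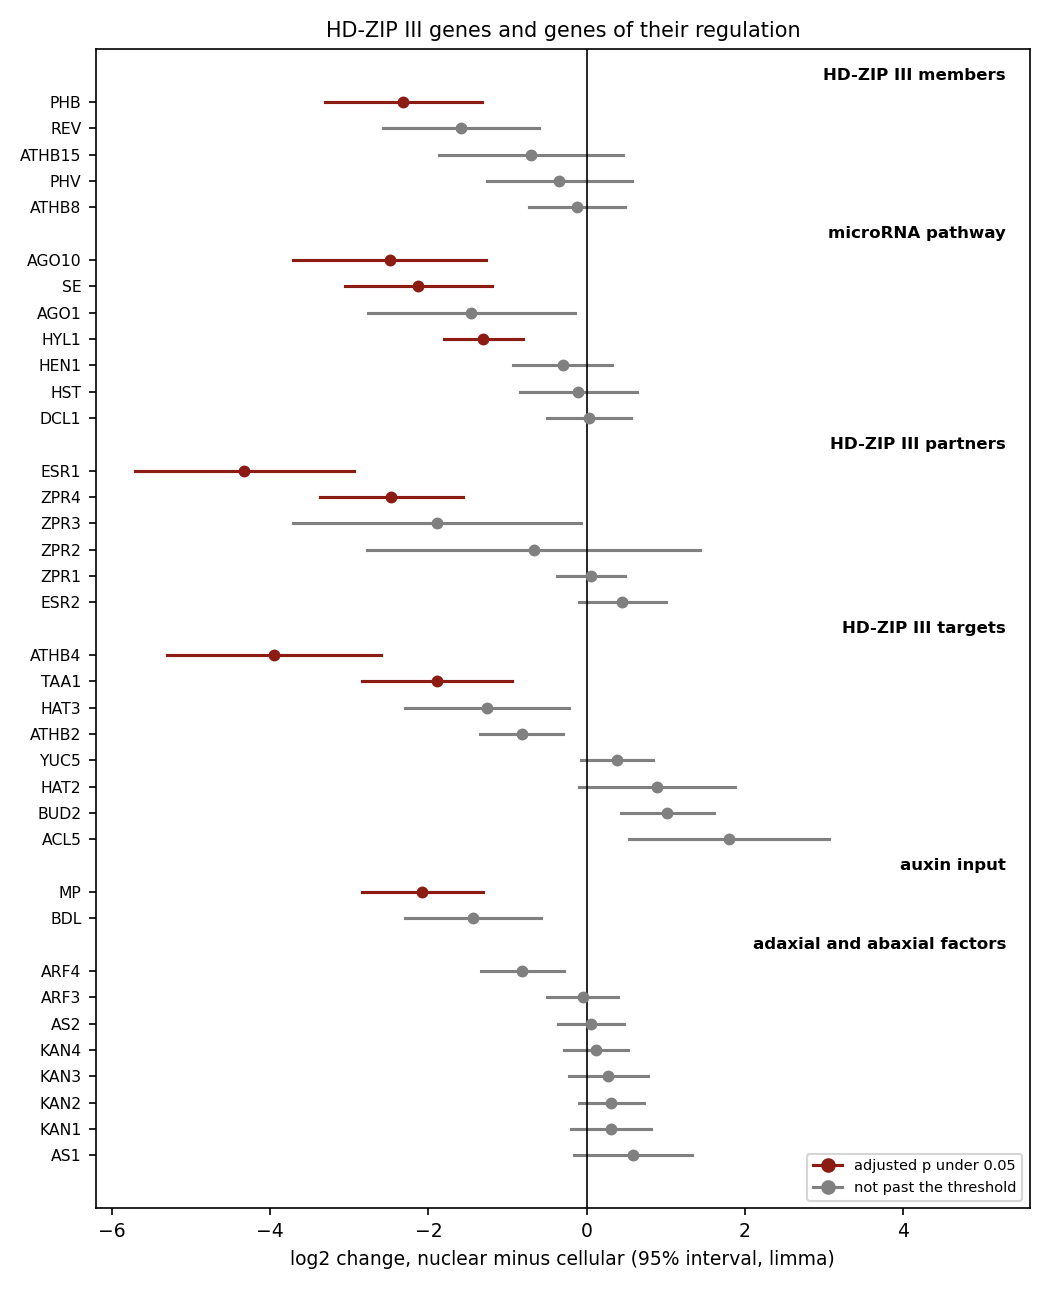
Log2 change, nuclear minus cellular (horizontal axis, points with limma 95% intervals), of the HD-ZIP III genes and of 5 lists of genes tied to them, ordered by change within each list. Dark red marks an adjusted p under 0.05; 9 genes are marked, all below 0, from ESR1 at -4.32 to HYL1 at -1.30.

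Of 8 genes reported as downstream of HD-ZIP III factors, 2 were lower and 0 higher, where 4.71% of all genes were lower and 1.15% higher. Their changes went both ways, from -3.95 to 1.80, with a median of -0.22 against 0.13 for all genes. ATHB4, an HD-ZIP II factor of the upper leaf side, had 2.24, 2.90 and 2.70 on the nuclear arrays, against 7.34, 7.08 and 5.28 on the cellular arrays. Its nuclear values lay near the array medians, and the measured ratio was 15.5-fold lower (log2 change -3.95, SE 0.56, limma adjusted p = 0.0160). TAA1, an aminotransferase of auxin synthesis, fell 3.71-fold (limma adjusted p = 0.0455, and 0.0591 after cyclic loess), also against nuclear values near the array medians. HAT3, which acts with ATHB4, had 2.38, 2.49 and 2.45 on the nuclear arrays, against 4.49, 3.83 and 2.78 on the cellular arrays, with no overlap. HAT3 did not pass (log2 change -1.26, limma adjusted p = 0.151), but did without cellular replicate 3 (-1.72, limma adjusted p = 0.0253), which took the count to 3 of 8. ATHB2, a shade-induced HD-ZIP II factor, was at -0.82 (limma adjusted p = 0.0851) and HAT2, of the same class, at 0.89 (limma adjusted p = 0.249).

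ACL5 and BUD2, which ATHB8 switches on, had higher nuclear than cellular means, and neither passed. ACL5, which makes thermospermine and keeps vessel formation in check, had 2.52, 4.53 and 4.20 on the nuclear arrays, against 1.82, 1.94 and 2.08 on the cellular arrays. All nuclear arrays lay above the cellular ones, but the change of 1.80 did not pass (limma adjusted p = 0.107). BUD2, an enzyme that supplies thermospermine synthesis, had 3.38, 3.87 and 3.90 on the nuclear arrays, against 2.65, 2.45 and 2.99 on the cellular arrays, a change of 1.02 without overlap (limma adjusted p = 0.0667). YUC5, a flavin monooxygenase of auxin synthesis, was at 0.38 (limma adjusted p = 0.274). Without nuclear replicate 1 ACL5 passed (change 2.42, limma adjusted p = 0.0185). TAA1 lost its call when any 1 array other than cellular replicate 3 was left out, and ATHB4 without nuclear replicate 2, cellular replicate 1 or cellular replicate 2.

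MP (MONOPTEROS), the auxin response factor that switches on ATHB8, had 5.76, 5.99 and 5.23 on the nuclear arrays, against 7.94, 8.06 and 7.22 on the cellular arrays. The groups lay well apart, and MP fell 4.22-fold (log2 change -2.08, SE 0.32, limma adjusted p = 0.0197), a call lost after cyclic loess (0.0698) and quantile normalization (0.0536) and without nuclear replicate 1, cellular replicate 1 or cellular replicate 2. BDL, the auxin-labile repressor of MP, did not pass (log2 change -1.43, limma adjusted p = 0.0728), though its arrays did not overlap.

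Among 8 other factors of leaf polarity none passed and changes ran from -0.81 to 0.58, with a median of 0.20. The lowest was ARF4, an auxin response factor of the lower leaf side, with 2.38, 2.33 and 2.02 on the nuclear arrays, against 2.94, 3.33 and 2.89 on the cellular arrays (limma adjusted p = 0.0862). It was the 1 gene of the list with an unadjusted p under 0.05, where 13.3% of all genes were lower at that p. The KANADI genes, which oppose HD-ZIP III genes on the lower side, lay between 1.59 and 2.57 on all arrays, with changes from 0.12 for KAN4, which lay below 0 after cyclic loess or quantile normalization, to 0.31 for KAN1. AS1, a MYB factor that works with AS2, had all nuclear arrays above the cellular ones (change 0.58, limma adjusted p = 0.302), and AS2 and ARF3 were near 0, at 0.05 and -0.05.

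The other HD-ZIP classes share the homeodomain and zipper, and class IV also the START domain. Of all genes, 4.71% were lower and 1.15% higher, with a median change of 0.13. Class III had 1 of 5 genes lower and a median change of -0.70. Class IV had 2 of 16 lower and 1 higher, with a median of 0.15 (-0.010 after cyclic loess). Class II had 1 of 10 lower, which was ATHB4, and 0 higher, with a median of -0.11. ATHB4, HAT3, ATHB2 and HAT2 of class II are also among the downstream genes above, so these 2 lists are not separate results. Class I had 0 of 17 in either direction, with a median of 0.40. At an unadjusted p under 0.05, 4 of 17 class I genes were higher and 0 lower, against 10.1% and 13.3% of all genes. No test compared the classes. In class IV, HDG12 and HDG5, genes of the epidermis, were 25.5-fold (limma adjusted p = 0.0185) and 9.46-fold (limma adjusted p = 0.0468) lower, and ANL2, which acts below the epidermis, was 1.72-fold higher (limma adjusted p = 0.0490). HDG12 had 3.16, 2.83 and 2.88 on the nuclear arrays, against 8.39, 8.55 and 5.94 on the cellular arrays, cellular replicate 3 again being the lowest of its group, and its change was -4.67 with that array and -5.52 without it. In class I the lowest p were those of ATHB54 (change 1.75, limma adjusted p = 0.0857) and ATHB7 (change 0.63, limma adjusted p = 0.164), both with all nuclear arrays above the cellular ones. The call of ANL2 was lost when any 1 array was left out. Those of HDG12 and HDG5 were lost without any 1 array other than cellular replicate 3, and that of HDG5 also after cyclic loess and quantile normalization.

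**Figure D4:**
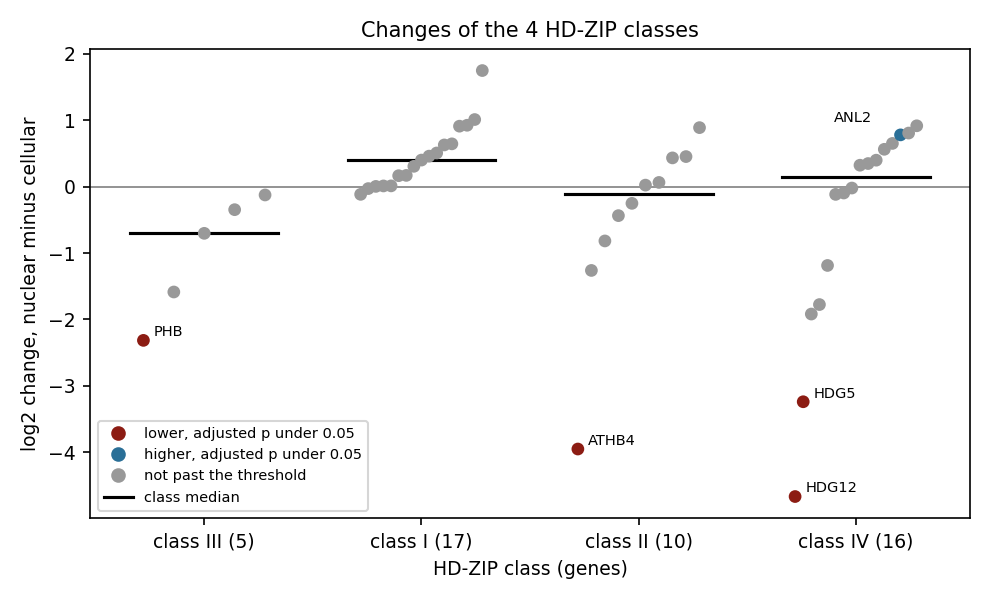
Log2 change, nuclear minus cellular (vertical axis), of each gene in the 4 HD-ZIP classes (horizontal axis, number of genes in brackets), with the class median as a line. All 5 class III genes lie below 0, where 2 of 17 class I, 5 of 10 class II and 8 of 16 class IV genes do; after cyclic loess PHV lies above 0, and 7 class I, 7 class II and 8 class IV genes lie below it.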

How the data were processed

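RNA from 3 nuclear and 3 cellular samples was measured on 6 arrays. The deposited table holds RMA intensity per locus (RMA is named in the submitters' processing notes). The array type, probe set definitions and genome build are not given in the sources used here, so no coordinates are given. RMA usually gives all arrays 1 distribution, which can move changes between unlike RNA pools. The deposited locus values still differed in distribution, with log2 array medians from 2.46 to 2.68. Values were linear and were put on the log2 scale. Of 27826 loci, 27241 were found by locus in RefSeq genes (TAIR10.1) and tested, and 585 were left out. All 112 loci of the gene lists matched. Groups were compared with limma version 3.58.1 (R 4.3.3), using eBayes after lmFit with 4 residual and 2.33 prior degrees of freedom. The code was checked on simulated data. The number of arrays limits the precision. The members and lists were chosen with earlier results of these data known. Genes named are the members, all genes of 6 lists tied to them, class I, II and IV genes past the threshold (the 2 of lowest p where none passed) and the 2 genes closest in profile to each member. Same-numbered samples did not deviate together (correlations -0.05, -0.06 and -0.01), so replicate numbers were not taken as pairs. As alternatives, arrays were rescaled by cyclic loess or quantiles, each array was left out or arrays were weighted, dim genes were filtered, all loci were kept, a replicate block was added, and the variance was fitted with a robust trend.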

Additional observations from a re-analysis of the deposited data

How the results depend on the processing

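With 3 arrays a group, calls near the threshold moved readily, and dim genes such as ATHB8 and the precursors have no detection calls to bound them. With the replicate block the change of PHB stayed at -2.32 but lost its call (adjusted p = 0.0985), so 0 members were lower, and 571 genes were lower and 118 higher in all, against 1284 and 313. With the block ZPR4 lost its call (adjusted p = 0.0681) and ZPR3 passed (0.0484), leaving the partners at 2 lower. The block left 0 lower genes in the microRNA pathway, 1 among the downstream genes, and 1 lower and 0 higher in class IV. Cyclic loess gave 846 lower and 489 higher genes (63.4% lower, against 80.4% as deposited), 0 lower in the microRNA pathway, 1 among the downstream genes, 0 of MP and BDL and 1 in class IV. Quantile normalization left 0 of MP and BDL and 1 lower in class IV. The filter on dim genes and the trended variance left 0 higher in class IV.

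Leaving out 1 array at a time, all genes lower ran from 254 to 1688 and higher from 28 to 419, the first without cellular replicate 2 and the last without cellular replicate 3. PHB ran from -2.71 to -2.09, REV from -2.05 to -1.30, ATHB8 from -0.29 to 0.035 (above 0 without nuclear replicate 3 or cellular replicate 2), and the members called lower from 0 to 2. Lower genes ran from 0 to 3 in the microRNA pathway, 1 to 2 among partners, 0 to 3 among downstream genes (0 to 1 higher), 0 to 1 for MP and BDL, 0 to 2 in class II, and 0 to 2 in class IV, where 0 were higher each time. PHV minus ATHB15 ran from -0.27 to 0.84 and ATHB8 minus ATHB15 from -0.033 to 1.11. Genes near 0 also crossed it: ARF3 (-0.13 to 0.014), AS2 (-0.017 to 0.12), DCL1 (-0.13 to 0.13), HST (-0.38 to 0.17), MIR166D (-0.13 to 0.17), MIR166E (-0.011 to 0.16), ZPR2 (-1.23 to 0.37), AT1G32172 (-0.25 to 0.017) and SEC15A (-0.19 to 0.064).

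After cyclic loess and quantile normalization the sign turned for MIR165A (-0.093 and -0.056), MIR166D (-0.12 and -0.070), MIR166E (-0.11 and -0.091), ZPR1 (-0.15 and -0.12), AS2 (-0.14 and -0.11), KAN4 (-0.090 and -0.075) and PHV minus ATHB8 (0.21 and 0.10), for PHV after cyclic loess (0.024), for ARF3 after quantile normalization (0.0042) and for HST with array weights (0.0019). None of these had passed. The causes were not tested.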
